A study of Mus musculus with 12 samples.

Results

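The immediate early genes are 10 transcripts that cells can switch on within minutes of a stimulus, and their levels were compared here in peritoneal macrophages labelled as lacking the antiviral enzyme SAMHD1. They were taken by gene symbol (Fos, Fosb, Jun, Junb, Jund, Egr1, Atf3, Dusp1, Ier2 and Zfp36), and all 10 were found among the 15721 genes of the deposited table. Poly-dT-enriched, strand-specific RNA sequencing had been run on macrophages sorted by FACS from C57BL/6 mice of 4 genotypes, with 3 libraries each. WT mice carried no named mutation, with a labelled age of 16, 16 and 16 and no unit given. Samhd1 KO mice were labelled as lacking Samhd1, with ages of 19, 18 and 16. Samhd1 Cardif dKO mice were labelled as lacking Samhd1 and Cardif, another name of the RNA-sensing adaptor MAVS, with ages of 18, 18 and 16. Samhd1 Sting dKO mice were labelled as lacking Samhd1 and STING, the adaptor of the DNA sensor cGAS, with ages of 24, 16 and 18. All mice were female except the male of Samhd1 Cardif dKO replicate 1, and no treatment is named for any group. Both double knockouts therefore share the labelled loss of SAMHD1 with the single knockout, and the labels do not say whether deletions were constitutive or whether each library came from a separate animal. The p-values measure the spread between these libraries, which may in part be technical.

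Immediate early genes are transcribed from promoters that already hold their activators, without new protein synthesis, and their messengers decay fast. The FOS proteins (Fos, Fosb) pair with the JUN proteins (Jun, Junb, Jund) to form the transcription factor AP-1, and ATF3 is a related bZIP protein that often represses inflammatory genes. EGR1 is a zinc finger transcription factor, DUSP1 is a phosphatase that switches off p38 and JNK kinases, ZFP36 (tristetraprolin) triggers the decay of cytokine messengers such as that of TNF, and IER2 is a nuclear protein of less settled function. In macrophages these genes respond to microbial products and cytokines, and also to handling of the cells during isolation.

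The promoter letters are shown because the 10 genes are usually grouped by shared upstream signals, while their values here differed from gene to gene. RefSeq start sites on GRCm38.p6 were at hand for 8 of the 10 genes, all but Egr1 and Ier2, whereas the deposited gene models are on mm9. The 250 bases before the start were searched on both strands for the CArG box of serum response factor, the cyclic AMP response element TGACGTCA, the AP-1 site TGANTCA, an ETS site CCGGAAGT, the Sp1 site GGGCGG and the EGR site GCGGGGGCG. Capitals mark matches, and the lower-case letters hold none. Junb is shown as the member that rose in Samhd1 KO, and Fos as the gene with a smaller share, in every mutant, of the summed messengers of the 5 AP-1 members. Within these windows of 250 bases, Zfp36 and Dusp1 hold the only exact match to the CArG box and to the cyclic AMP element among the 8 genes. Sites farther upstream, in Fos or any other gene, were not searched.
Junb, chr8:84978749-84978998, minus strand: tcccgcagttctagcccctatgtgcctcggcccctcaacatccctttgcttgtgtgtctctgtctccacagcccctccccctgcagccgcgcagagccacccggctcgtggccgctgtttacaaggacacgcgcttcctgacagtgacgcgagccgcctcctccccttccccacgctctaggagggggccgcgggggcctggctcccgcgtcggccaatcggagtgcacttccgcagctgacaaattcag
Fos, chr12:85473640-85473889, plus strand: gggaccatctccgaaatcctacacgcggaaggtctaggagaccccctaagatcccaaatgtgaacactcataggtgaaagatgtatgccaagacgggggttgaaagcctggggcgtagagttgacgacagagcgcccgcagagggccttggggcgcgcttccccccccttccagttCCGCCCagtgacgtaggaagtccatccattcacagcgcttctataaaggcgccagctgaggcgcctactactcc
Zfp36, chr7:28379229-28379478, minus strand: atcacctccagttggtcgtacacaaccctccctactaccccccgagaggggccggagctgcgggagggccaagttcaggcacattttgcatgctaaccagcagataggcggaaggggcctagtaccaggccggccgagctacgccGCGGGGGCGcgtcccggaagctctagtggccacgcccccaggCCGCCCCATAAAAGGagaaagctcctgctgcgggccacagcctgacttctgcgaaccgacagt
Dusp1, chr17:26508473-26508722, minus strand: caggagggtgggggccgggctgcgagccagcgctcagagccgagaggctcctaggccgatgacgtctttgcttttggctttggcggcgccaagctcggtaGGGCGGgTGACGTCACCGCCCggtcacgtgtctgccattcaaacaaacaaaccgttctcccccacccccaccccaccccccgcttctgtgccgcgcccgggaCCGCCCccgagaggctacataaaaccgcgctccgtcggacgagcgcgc
The CArG box of Zfp36 lies 58 to 49 bases before the start and shares 1 base with an Sp1 match, and an EGR match lies 105 to 97 bases before it. The cyclic AMP element of Dusp1 lies 143 to 136 bases before the start, between a pair of Sp1 matches. Over all 32851 promoters of this length, 1.47% hold a CArG box, 1.55% the cyclic AMP element, 2.57% the EGR site and 32.7% the Sp1 site. The EGR site was in 2 of the 8 members (Fosb and Zfp36) and the Sp1 site in 6 of 8, while the AP-1 site (6.75% of all promoters) and the ETS site (2.88%) were in 0 of 8. In the Junb promoter above, none of the 6 motifs was found, and the same holds for Jund. The GENCODE gene start differs from the RefSeq start used here for several genes, by 1210 bases for Jund, -1025 for Zfp36, -53656 for Dusp1 and -34706 for Atf3 (negative is upstream of the RefSeq start), so their windows belong to the RefSeq start alone. For Junb, Fos, Jun and Fosb it lies within 30 bases. These matches describe letters in a short window and say nothing about whether a factor binds there.

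Recovered depth was 18884021 to 32204657 reads per library, and 15238 to 15470 genes had a read. Samhd1 was at 10113 to 11525 normalized reads in WT, 5555 to 7816 in Samhd1 KO and 2952 to 4563 over both double knockouts. Mavs was at 509 to 525 in Samhd1 Cardif dKO and 768 to 1008 elsewhere, while Tmem173, which encodes STING, was at 538 to 577 in Samhd1 Sting dKO and 481 to 768 elsewhere. Samhd1 reads thus remained in all mutant libraries, below WT, and those of Samhd1 KO lay above both double knockouts. Whole-gene reads can persist in a knockout, so neither the loss of SAMHD1 nor that of STING can be checked from them. Macrophage identity was present in every library, with Gata6, the defining factor of large peritoneal macrophages, at 3134 to 4414 normalized reads. Of 10 markers of these cells, 1 was called lower in Samhd1 Sting dKO against Samhd1 KO (limma adjusted p under 0.05). In each other comparison 0 were called. Of 6 tested small macrophage, monocyte and dendritic cell markers, 1 rose and 1 fell in Samhd1 KO against WT by that test. In that list, Ccr2 stood at 202 to 213 normalized reads in WT and 518 to 912 in Samhd1 KO. Cd209a stood at 652 to 1093 in WT and 302 to 480 in Samhd1 KO. Summed B cell markers (7 genes) lay at 592 to 1007 normalized reads in WT, 265 to 499 in Samhd1 KO, 353 to 884 in Samhd1 Cardif dKO and 1336 to 3198 in Samhd1 Sting dKO. Summed mast cell markers (5 genes) lay at 84.0 to 259, 7.23 to 9.43, 37.1 to 62.5 and 35.8 to 511 in the same order. In bulk RNA, fewer cells of a type and less RNA per cell cannot be told apart.

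All 10 genes passed the filter (10 normalized reads or more in 3 or more libraries), although Fosb rested on 7 to 47 recovered reads per library. Normalized reads are reads divided by a size factor per library. Set against transcript length, in normalized reads per kb of transcript, the WT means fell in the order Dusp1 (1682), Junb (1657), Zfp36 (1422), Ier2 (850.3), Jund (395), Atf3 (288), Fos (181), Jun (178), Egr1 (53.9) and Fosb (4.63). In Samhd1 KO, Junb led at 2587 per kb, ahead of Zfp36 at 1472 and Dusp1 at 1447. Junb also led in Samhd1 Cardif dKO at 1943 and in Samhd1 Sting dKO at 2555 per kb, while Dusp1 stood at 986 and 1007. By this measure Dusp1 had the highest mean in WT and Junb in each mutant genotype.

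**Figure D1:**
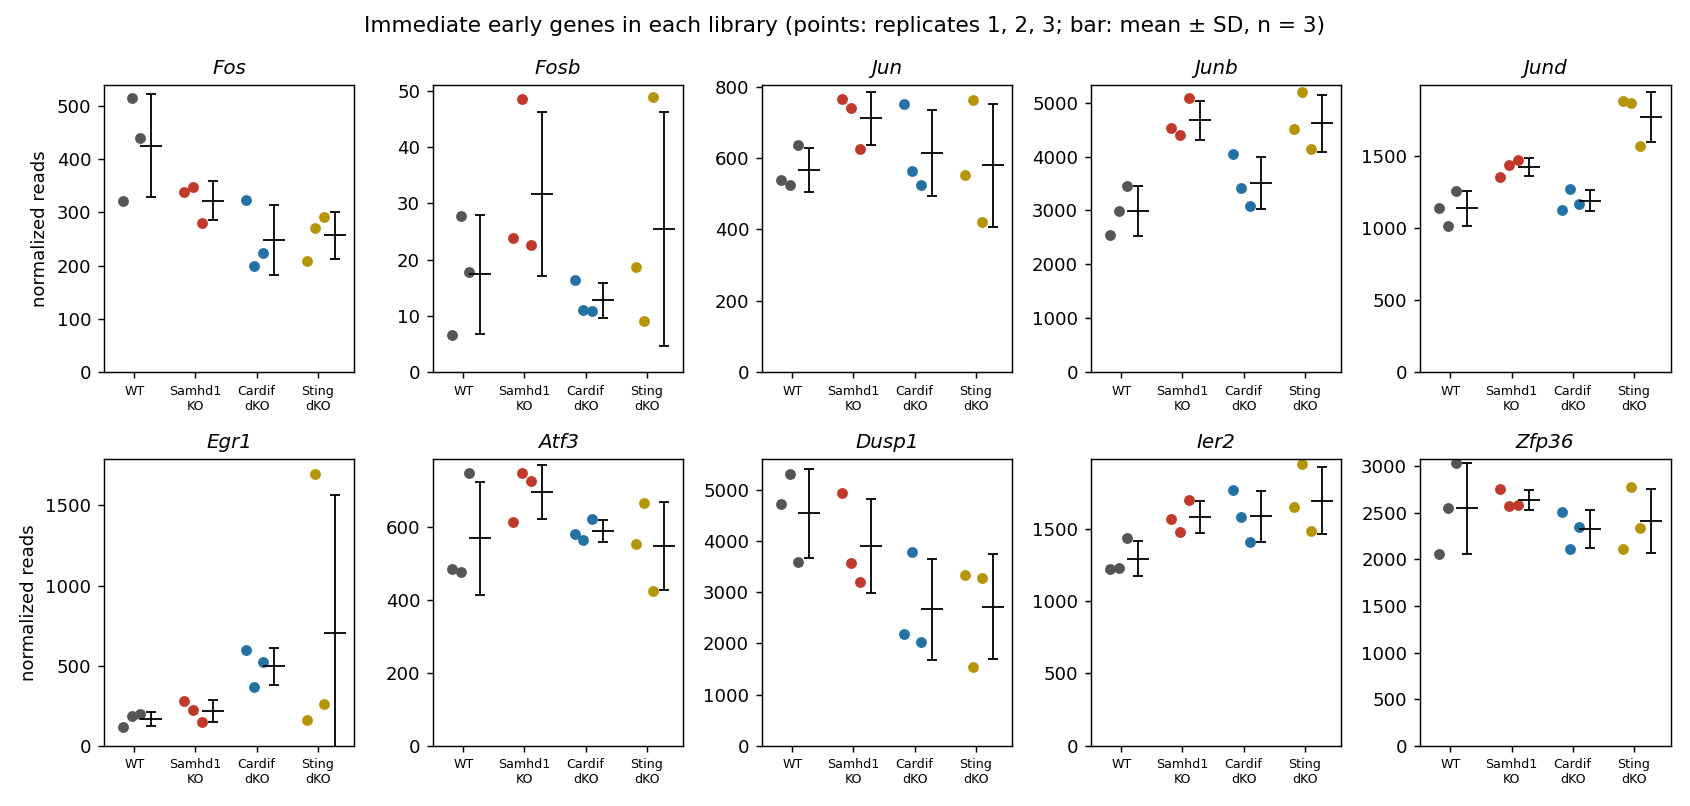
Normalized reads (vertical axis, linear from 0, own scale per gene) of the 10 immediate early genes in each library, grouped by genotype, with points for replicates 1 to 3 and a bar for mean ± SD (n = 3). Junb and Jund show the tightest groups relative to their differences, and the SD bar of Egr1 in Samhd1 Sting dKO runs below 0 because 1 library stands at 1699 and the others at 158 and 261.

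Across the 6 comparisons the AP-1 subunit Junb and its relative Jund were the members that passed the test, and both were higher, never lower. In Samhd1 KO against WT, 1 of 10 members rose (Junb) and 0 fell, where 4.32% of the 13231 tested genes were called (limma, Benjamini-Hochberg adjusted p under 0.05). Between Samhd1 Sting dKO and WT, 2 of 10 rose (Junb and Jund) and 0 fell, against 6.50% of all tested genes. Between the double knockouts, 1 of 10 rose in Samhd1 Sting dKO (Jund), against 0.280% of all tested genes. None of the 10 passed in Samhd1 Cardif dKO against Samhd1 KO (0.144% of all genes), in Samhd1 Sting dKO against Samhd1 KO (5.66%) or in Samhd1 Cardif dKO against WT (1.06%). At an unadjusted p under 0.05, the first 3 comparisons gave 3 higher and 0 lower, 3 higher and 2 lower, and 2 higher and 0 lower members. Over all 13231 tested genes that p gave 1350 higher and 1137 lower, 1604 and 1360, and 1022 and 1054 in the same order. By the same unadjusted p, the last 3 gave 0 higher and 2 lower, 1 higher and 0 lower, and 2 higher and 2 lower members. All tested genes there gave 448 higher and 740 lower, 1420 and 1531, and 954 and 962. By DESeq2, 0, 1 (Jund) and 1 (Fos) members passed in the last 3 comparisons, and by edgeR 0 in each. The comparisons share libraries, so they are not independent of each other.

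Over the 10 members, the median log2 difference was 0.32 in Samhd1 KO against WT, with 8 of 10 values above 0, beside a median of 0.00 over all tested genes. Against Samhd1 KO, the median was -0.25 in Samhd1 Cardif dKO (1 of 10 above 0) and -0.24 in Samhd1 Sting dKO (3 of 10 above 0). Against WT it was 0.07 in Samhd1 Cardif dKO (6 of 10) and 0.19 in Samhd1 Sting dKO (5 of 10), and between the double knockouts 0.06 (7 of 10). The median of all tested genes was within 0.01 of 0 in each.

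**Figure D2:**
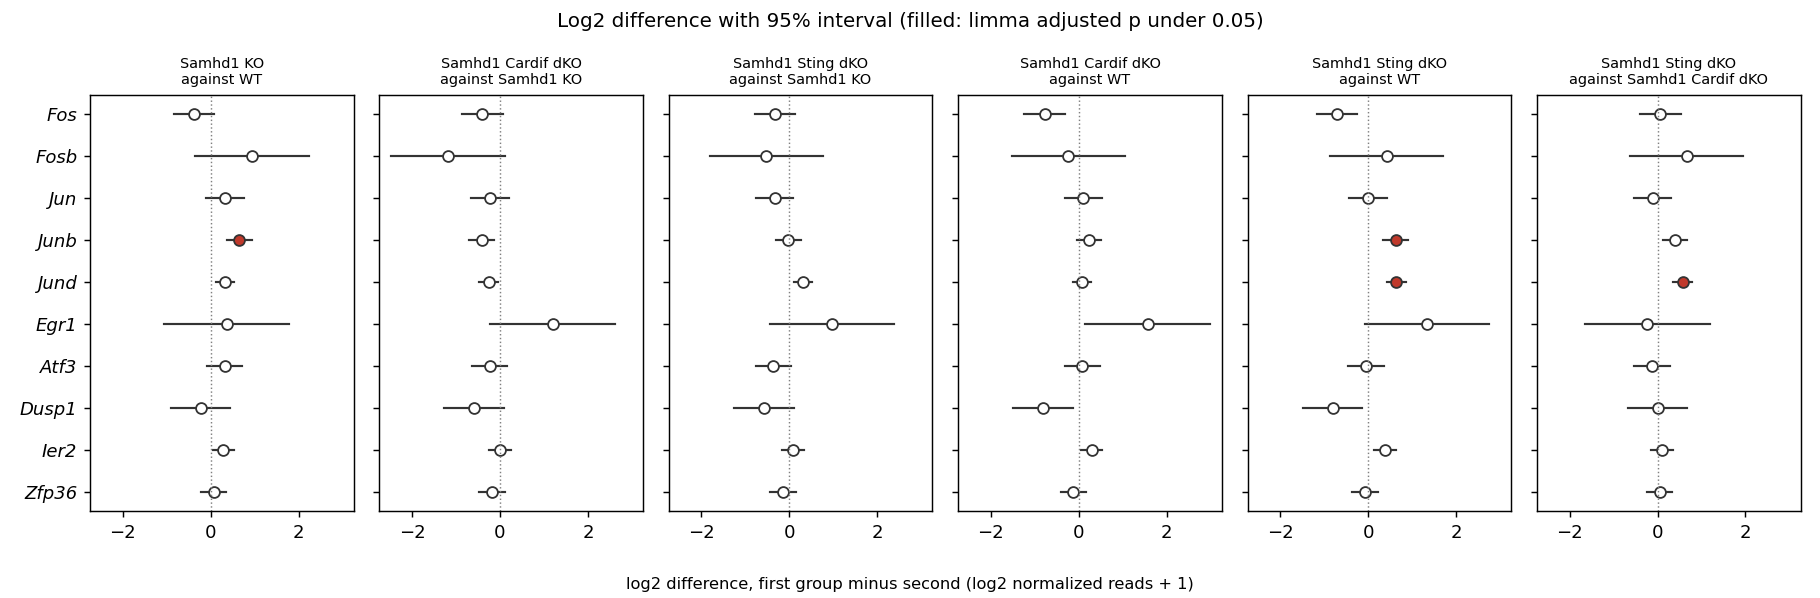
Log2 difference (horizontal axis, log2 normalized reads + 1, first group minus second) of each immediate early gene in the 6 comparisons, with its 95% interval from limma. Filled points mark an adjusted p under 0.05, which are Junb in Samhd1 KO and Samhd1 Sting dKO against WT and Jund in Samhd1 Sting dKO against WT and against Samhd1 Cardif dKO, while Fosb and Egr1 have the widest intervals.

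Junb, the most abundant per kb of the 5 AP-1 members, was higher in Samhd1 KO than in WT. It stood at 2536, 2983 and 3461 normalized reads in WT and at 4528, 4411 and 5083 in Samhd1 KO, so each Samhd1 KO library lay above each WT library. The log2 difference was 0.65 (SE 0.130, 95% interval 0.37 to 0.93, limma adjusted p = 0.0181), a rise of 1.57-fold on the log2(normalized reads + 1) scale. Leaving out WT replicate 1, WT replicate 2 or Samhd1 KO replicate 3 ended the call (log2 0.54, 0.65 and 0.59, adjusted p = 0.0644, 0.0527 and 0.0711). Summed B cell markers were lower in Samhd1 KO (265 to 499) than in WT (592 to 1007), and adding a B cell marker score to the model gave a difference of 0.51 (adjusted p = 0.349). That score did not overlap between these groups (4.73 to 5.64 in Samhd1 KO, 6.03 to 6.69 in WT), and it was 7.13 to 8.37 in Samhd1 Sting dKO. Score and genotype therefore cannot be told apart, and a call lost with the score does not separate them.

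Junb in Samhd1 Sting dKO stood at 4509.9, 5199 and 4143 normalized reads, again above all WT libraries. The log2 difference to WT was 0.63 (SE 0.130, limma adjusted p = 0.0162), and it was no longer past the threshold without WT replicate 1 (0.52, adjusted p = 0.0660) or Samhd1 Sting dKO replicate 2 (0.54, adjusted p = 0.0568). With that B cell score added it was 0.81 (adjusted p = 0.0908). Against Samhd1 KO, the Junb difference of Samhd1 Sting dKO was -0.02 with a 95% interval of -0.30 to 0.26, so changes beyond about that size in either direction lie outside the interval. In Samhd1 Cardif dKO, Junb stood at 4042, 3419 and 3074 normalized reads, between the WT and the Samhd1 KO means. These values lay below every Samhd1 KO library, with a log2 difference of -0.42 (95% interval -0.70 to -0.14, limma adjusted p = 0.323). They overlapped WT, with a difference of 0.23 (interval -0.05 to 0.52, adjusted p = 0.426). Samhd1 Sting dKO lay above Samhd1 Cardif dKO without overlap (0.40, limma adjusted p = 0.174). The order of mean levels was Samhd1 KO, Samhd1 Sting dKO, Samhd1 Cardif dKO, WT, and no neighbouring pair in that order passed the test.

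Jund, the JUN family member often described as the constitutive one that restrains proliferation, had the smallest spread of the 10 genes and rose in Samhd1 Sting dKO. It stood at 1138, 1018 and 1258 normalized reads in WT, 1357, 1437 and 1478 in Samhd1 KO, 1129.7, 1274 and 1171 in Samhd1 Cardif dKO, then 1883, 1869 and 1571 in Samhd1 Sting dKO. All 3 Samhd1 Sting dKO libraries lay above the other 9. Against WT the log2 difference was 0.64 (SE 0.0962, 95% interval 0.43 to 0.85, limma adjusted p = 0.00374), and it passed with each of the 12 libraries left out in turn. Against Samhd1 Cardif dKO it was 0.57 (SE 0.0962, interval 0.36 to 0.78, limma adjusted p = 0.0327). The authors' deposited table gives Jund a ratio of 1.489 for the same comparison, with an adjusted p of 0.0207, as 1 of 155 genes under 0.1.

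The Jund difference between the double knockouts lost its call under several settings. Its limma adjusted p was 0.114 with age as a term (0.56), 0.117 with sex (0.53) and 0.135 with the 2 groups alone (0.57). It kept 0.53 to 0.66 on the log2 scale when any of WT replicates 1 and 3, Samhd1 KO replicate 3, the 3 Samhd1 Cardif dKO libraries or the 3 Samhd1 Sting dKO libraries was left out, with limma adjusted p from 0.0516 to 0.125. The 3 Samhd1 Sting dKO libraries had B cell marker scores (mean log2 of 7 genes) of 8.37, 7.74 and 7.13, against 4.73 to 6.69 in the other 9. Jund and the score ranked the replicates alike in Samhd1 Sting dKO and in Samhd1 Cardif dKO (scores of 5.19, 6.31 and 5.89). In Samhd1 KO, Jund rose from replicate 1 to 3 (1357, 1437 and 1478) as the score fell (5.64, 5.27 and 4.73). The orders also differed in WT (scores of 6.69, 6.03 and 6.26). With that score as a term the Jund difference was 0.48 against WT (limma adjusted p = 0.160) and 0.34 against Samhd1 Cardif dKO (adjusted p = 0.933). In Samhd1 KO, Jund lay above every WT library with a log2 difference of 0.33 (interval 0.12 to 0.54, limma adjusted p = 0.0803), and Samhd1 Sting dKO lay above every Samhd1 KO library with 0.31 (interval 0.10 to 0.52, adjusted p = 0.0805). Neither passed the limma threshold, whereas both passed by DESeq2 (adjusted p = 0.0352 and 0.0324), and the second also by limma without Samhd1 Sting dKO replicate 3 (0.40, adjusted p = 0.0423).

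Jun, the founding member of the family and a target of its own protein and of JNK, showed no called difference. It stood at 538, 524 and 637 normalized reads in WT, 767, 741 and 627 in Samhd1 KO, 751, 564 and 526 in Samhd1 Cardif dKO, then 553, 764 and 422 in Samhd1 Sting dKO. The Samhd1 KO mean (712 ± 74.6, SD, n = 3) was the highest, yet the groups overlapped, and the log2 difference to WT was 0.33 (95% interval -0.09 to 0.75, limma adjusted p = 0.392). The lowest and the highest of the double knockout libraries both came from Samhd1 Sting dKO.

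Fos, the partner that gives AP-1 its most active dimers, was highest in WT. It stood at 322, 515 and 440.2 normalized reads in WT, 338, 348 and 281 in Samhd1 KO, 323, 199.7 and 223 in Samhd1 Cardif dKO, then 208, 271 and 292 in Samhd1 Sting dKO. The log2 differences to WT were -0.38 in Samhd1 KO (95% interval -0.84 to 0.08, limma adjusted p = 0.360), -0.78 in Samhd1 Cardif dKO (interval -1.24 to -0.32, adjusted p = 0.115) and -0.71 in Samhd1 Sting dKO (interval -1.17 to -0.26, adjusted p = 0.0654). None passed, although Samhd1 Sting dKO did not overlap WT. It passed with sex as a term (adjusted p = 0.0393) and without Samhd1 Cardif dKO replicate 1 (adjusted p = 0.0387), the only male, so these settings are 1 check. Adding a B cell marker score moved it to -0.16 (adjusted p = 0.849), and adding age to -0.62 (adjusted p = 0.223). That score moved the other differences to WT to -0.82 in Samhd1 KO (adjusted p = 0.208) and -0.99 in Samhd1 Cardif dKO (adjusted p = 0.0698). By DESeq2 the values of Samhd1 Cardif dKO (-0.78, adjusted p = 0.0175) and Samhd1 Sting dKO (-0.73, adjusted p = 0.0139) passed. WT replicate 1, at 322, was as low as the Samhd1 KO libraries.

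Fosb, a FOS relative that is normally silent in resting cells, was the rarest of the 10 messengers. It stood at 6.63, 27.7 and 17.8 normalized reads in WT, 23.9, 48.5 and 22.6 in Samhd1 KO, 16.4, 11.04 and 10.9 in Samhd1 Cardif dKO, then 18.7, 9.0 and 48.9 in Samhd1 Sting dKO. The Samhd1 Cardif dKO libraries lay below all Samhd1 KO libraries, with a log2 difference of -1.18 (95% interval -2.47 to 0.11, limma adjusted p = 0.614). It rested on 7 to 47 reads per library, and within Samhd1 Sting dKO alone its level ranged from 9.0 to 48.9 normalized reads.

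The FOS and JUN genes among the members were summed per kb of transcript, which leaves out other AP-1 subunits such as Fosl2 (2444 to 3089 normalized reads in WT, before division by length). This sum came to 2106, 2395 and 2744 normalized reads per kb in WT, 3368, 3333 and 3649 in Samhd1 KO, 3006, 2600 and 2371 in Samhd1 Cardif dKO, then 3417, 3883 and 3108 in Samhd1 Sting dKO. Samhd1 KO and Samhd1 Sting dKO lay above every WT library, and Samhd1 Cardif dKO overlapped WT. Junb made up 68.5% ± 1.63 of this sum in WT (SD, n = 3) and in Samhd1 KO 74.9% ± 1.98, with 73.0% ± 1.33 for Samhd1 Cardif dKO and 73.6% ± 0.533 for Samhd1 Sting dKO. Fos made up 7.48% ± 1.44 in WT and 3.99% ± 0.628, 3.94% ± 0.651 and 3.18% ± 0.730 in the others, and each WT library (6.50%, 9.13% and 6.82%) lay above the highest of the other 9 (4.56%). Jund held 16.5%, 14.4%, 15.7% and 17.8% in the same order, Jun 7.38%, 6.50%, 7.20% and 5.17%, and Fosb 0.127% to 0.248%. These are shares of the 5 members' messengers, not of all AP-1 messengers or of proteins, and no test was run on them. A share of Fos also falls where the sum, mostly Junb, rises. WT replicate 1 and Samhd1 Cardif dKO replicate 1 had Fos at 322 and 323 normalized reads, yet shares of 6.50% and 4.56%, with sums of 2106 and 3006.

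**Figure D3:**
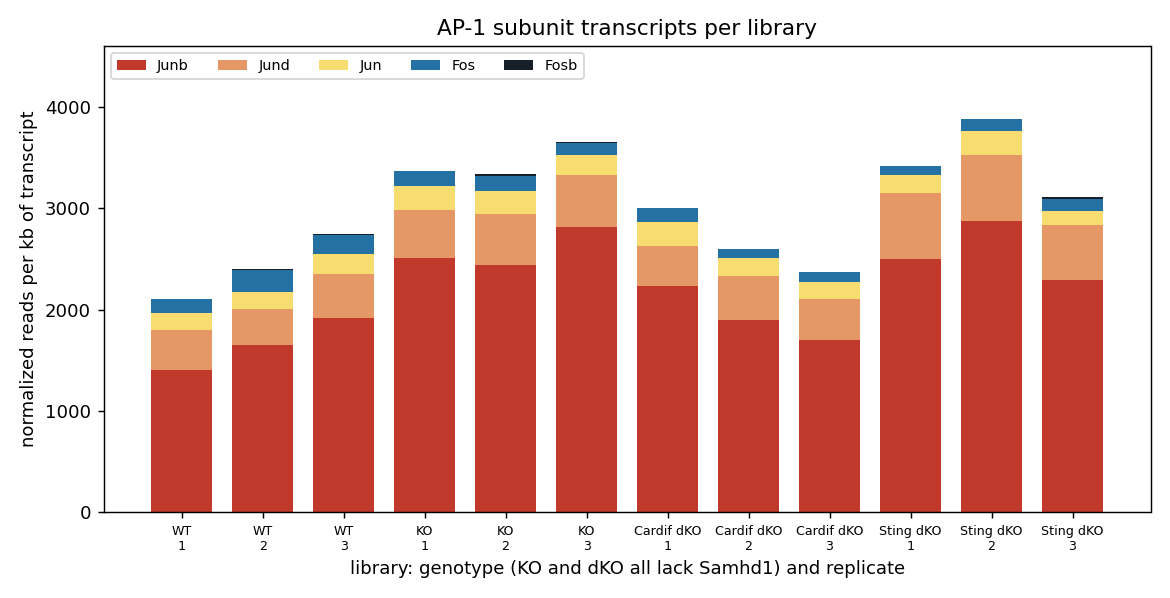
Normalized reads per kb of transcript (vertical axis, linear from 0) of the 5 AP-1 members (Fosl2 and other subunits not included), stacked, in each of the 12 libraries. Junb fills most of every bar. Fos makes up 6.50% to 9.13% of the WT bars and at most 4.56% of the others, although its absolute level overlaps between WT and other genotypes.

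Atf3, a bZIP repressor induced by stress and Toll-like receptors, showed no called difference. It stood at 486, 476 and 749 normalized reads in WT, 614, 750.4 and 729 in Samhd1 KO, 581, 565 and 624 in Samhd1 Cardif dKO, then 555, 667 and 426 in Samhd1 Sting dKO. The groups overlapped in all 6 comparisons, and the log2 difference of Samhd1 KO to WT was 0.32 (95% interval -0.09 to 0.72, limma adjusted p = 0.387). WT replicate 3 alone reached the Samhd1 KO range.

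Egr1, with 1 library far above the rest, had the largest within-group SD of the members on the log2 scale when pooled over genotypes. Its SD was 40.9 normalized reads in WT, 66.6 in Samhd1 KO and 118 in Samhd1 Cardif dKO, but 861 in Samhd1 Sting dKO. It stood at 120.2, 184 and 196 normalized reads in WT, 282, 223 and 149 in Samhd1 KO, 596, 365 and 524 in Samhd1 Cardif dKO, then 158, 1699 and 261 in Samhd1 Sting dKO. All Samhd1 Cardif dKO libraries lay above all WT and all Samhd1 KO libraries, and Samhd1 Sting dKO replicate 2 lay above everything else. The log2 difference of Samhd1 Cardif dKO was 1.56 to WT (95% interval 0.15 to 2.98, limma adjusted p = 0.298) and 1.198 to Samhd1 KO (interval -0.22 to 2.61, adjusted p = 0.652). The shared estimate of spread includes the 1699 library: without Samhd1 Sting dKO replicate 2 the difference to WT stayed 1.56 and passed (adjusted p = 0.0329), as it did with the 2 compared groups alone (adjusted p = 0.0397). The Egr1 difference of Samhd1 Sting dKO to WT was 1.33 (adjusted p = 0.251), and the difference to Samhd1 KO was 0.97 with that library and -0.05 without it.

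Dusp1, the phosphatase that ends p38 and JNK signalling, was among the most abundant members by reads per kb. It stood at 4727, 5299 and 3583 normalized reads in WT, 4941, 3573 and 3193 in Samhd1 KO, 2175, 3789.7 and 2016 in Samhd1 Cardif dKO, then 3326, 1538 and 3284 in Samhd1 Sting dKO. The lowest value, 1538, was in Samhd1 Sting dKO replicate 2, the library with the highest Egr1. The log2 difference to WT was -0.81 in Samhd1 Cardif dKO (95% interval -1.49 to -0.13, limma adjusted p = 0.257) and -0.81 in Samhd1 Sting dKO (interval -1.48 to -0.13, adjusted p = 0.146), and neither passed.

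Zfp36, the messenger-decay factor, was the steadiest in level. It stood at 2062, 2549 and 3031 normalized reads in WT, 2759, 2574 and 2579.8 in Samhd1 KO, 2513, 2107 and 2346 in Samhd1 Cardif dKO, then 2111, 2781 and 2339 in Samhd1 Sting dKO. Its highest library was 1.47-fold above its lowest, and the log2 difference of Samhd1 KO to WT was 0.07 (95% interval -0.22 to 0.36, limma adjusted p = 0.829). The largest of its differences, -0.19 between Samhd1 Cardif dKO and Samhd1 KO, had groups that did not overlap and an adjusted p of 0.752.

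Ier2 stood at 1222, 1226 and 1434 normalized reads in WT, 1571, 1480.2 and 1700.1 in Samhd1 KO, 1766, 1579 and 1411 in Samhd1 Cardif dKO, then 1651, 1946 and 1487 in Samhd1 Sting dKO. Samhd1 KO and Samhd1 Sting dKO lay above every WT library. The log2 difference to WT was 0.29 in Samhd1 KO (95% interval 0.04 to 0.54, limma adjusted p = 0.186), 0.29 in Samhd1 Cardif dKO (adjusted p = 0.269) and 0.38 in Samhd1 Sting dKO (interval 0.14 to 0.63, adjusted p = 0.0670). None passed by limma, and that of Samhd1 Sting dKO passed by DESeq2 (0.39, adjusted p = 0.0230).

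The members differed widely in how much they varied within a genotype. The within-group SD on the log2 scale, pooled over genotypes, was 0.97 for Egr1, 0.83 for Fosb and 0.46 for Dusp1. This placed them at the 98.0, 96.8 and 87.4 percentile of all tested genes. The pooled SD was 0.29 for Fos, 0.12 for Jund (28.4 percentile), 0.15 for Ier2, 0.18 for Junb and 0.19 for Zfp36. Its median over all tested genes was 0.17. The Egr1 value includes Samhd1 Sting dKO replicate 2, at 1699 normalized reads. From the lowest to the highest of the 12 libraries, Egr1 spanned 14.1-fold, Fosb 7.38-fold, Dusp1 3.45-fold and Junb 2.05-fold. The libraries of each genotype were also ranked for each member. WT replicate 3 was the highest of its group for 7 of 10 members and WT replicate 1 the lowest for 6 of 10. The male Samhd1 Cardif dKO replicate 1 was the highest of its group for 7 of 10, and Samhd1 Sting dKO replicate 2 for 6 of 10. In Samhd1 KO, replicates 1, 2 and 3 were the highest for 4, 3 and 3 members. Such ranks were not counted over all tested genes, so these counts have no background and are descriptions only.

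**Figure D4:**
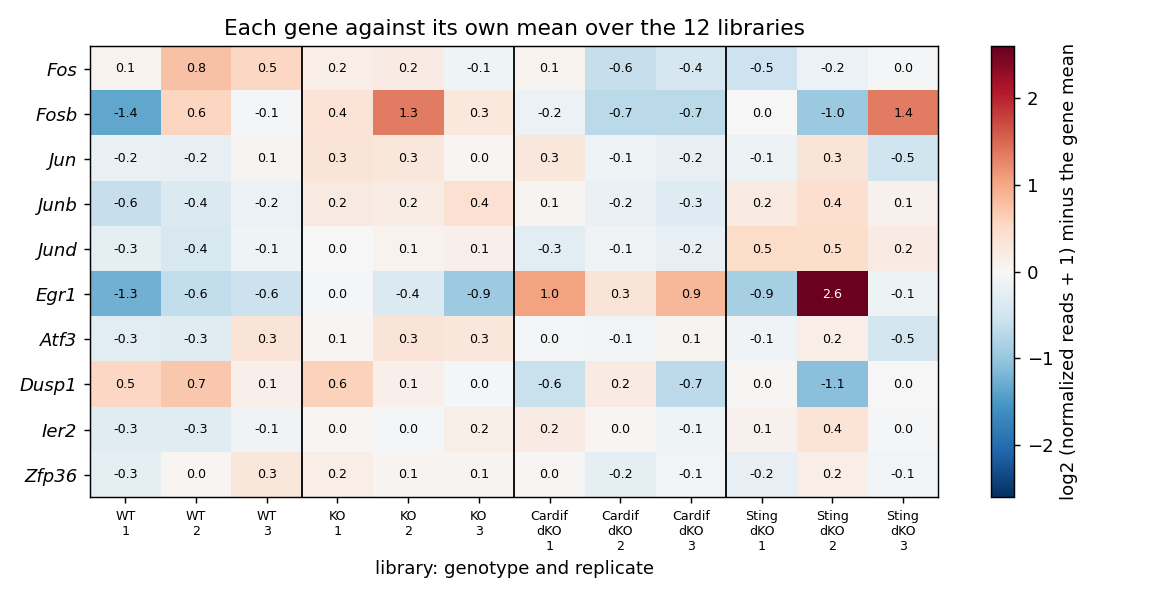
Log2 (normalized reads + 1) of each immediate early gene minus its own mean over the 12 libraries, as colour and number, with genes in rows and libraries in columns grouped by genotype. Junb is higher in each Samhd1 KO and Samhd1 Sting dKO library than in the other libraries, and Jund in each Samhd1 Sting dKO library. Egr1 reaches 2.6 in 1 library, Samhd1 Sting dKO replicate 2, where Dusp1 is at -1.1.

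Profiles over the 12 libraries were compared by the root mean square difference of centred log2 values. Among the member pairs, Junb and Ier2 were closest (0.18), followed by Jun and Atf3 (0.20) and Junb and Jund (0.20), and Fosb and Egr1 were farthest apart (1.49). The 5 genes nearest to Fos among 9814 were Mbd1 (0.20), Dapk1 (0.21), Naa16 (0.22), Napepld (0.22) and the heat shock co-chaperone Dnajb1 (0.23). Nearest to the mean of the 10 members, among 9806, were Ptpn1, Acaa2, Cdc34, Rps19bp1 and Nup153, at 0.09 to 0.10. The libraries share genotype groups and depth, so these are descriptions of likeness only.

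Of the other immediate early genes, 28 were tested, and at most 5 were called by limma in any comparison. In Samhd1 KO against WT, 1 rose and 2 fell, where 4.32% of all tested genes were called. In Samhd1 Sting dKO, 4 rose and 1 fell against WT (6.50% of all tested genes), and 3 rose and 1 fell against Samhd1 KO (5.66%). In Samhd1 Cardif dKO against WT, 0 rose and 1 fell (1.06%). The same shares of all tested genes stand beside the counts of the lists below. In the comparisons of Samhd1 Cardif dKO with each other mutant, 0 passed by limma. At an unadjusted p under 0.05, 2 were higher and 7 lower against Samhd1 KO, beside 448 and 740 of the 13231 tested genes. By that p, 9 were higher and 0 lower in Samhd1 Sting dKO than in Samhd1 Cardif dKO, beside 1022 and 1054. The median log2 difference of the list to WT was 0.08 in Samhd1 KO (15 of 28 above 0), -0.13 in Samhd1 Cardif dKO (11 of 28) and 0.14 in Samhd1 Sting dKO (17 of 28). Against Samhd1 KO it was -0.14 in Samhd1 Cardif dKO (6 of 28) and 0.18 in Samhd1 Sting dKO (17 of 28). Between the double knockouts 26 of 28 were higher in Samhd1 Sting dKO, with a median of 0.35, while the median of all tested genes was within 0.01 of 0.

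Klf4, a zinc finger factor linked to alternative macrophage activation, stood at 965, 1372 and 1005 normalized reads in WT and at 2408, 4313 and 3597 in Samhd1 Sting dKO. It rose by 1.603 on the log2 scale there (limma adjusted p = 0.00336), with each library left out in turn. In Samhd1 KO, at 2468, 1579 and 2481, it rose by 0.95 (adjusted p = 0.0401), a call that ended without WT replicates 1 or 3 or Samhd1 KO replicates 1 or 3 (0.84 to 0.89, adjusted p up to 0.142).

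Egr2, the relative of Egr1, stood at 14.2, 17.2 and 17.0 normalized reads in WT and 35.2, 68.6 and 70.4 in Samhd1 Sting dKO, a rise of 1.72 (limma adjusted p = 0.00630). Against Samhd1 KO (23.1, 33.0 and 19.8) it rose by 1.13 (adjusted p = 0.0435). That call ended without any of 9 libraries (0.96 to 1.13, adjusted p up to 0.140), which were all but Samhd1 KO replicate 2, Samhd1 Cardif dKO replicate 1 and Samhd1 Sting dKO replicate 1. The orphan nuclear receptor Nr4a1 stood at 117, 257 and 274 in WT and 472, 876 and 572 in Samhd1 Sting dKO. It rose by 1.61 (limma adjusted p = 0.0188), and not past the threshold without WT replicate 1 or Samhd1 Sting dKO replicate 2 (1.22 and 1.36, adjusted p = 0.0608 and 0.0647).

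Per1, an immediate early gene that is also part of the circadian clock, stood at 4543, 3777 and 2172 normalized reads in WT and 1211, 1022 and 474 in Samhd1 Cardif dKO. It fell by 2.00 on the log2 scale (limma adjusted p = 0.0192), a call that ended without WT replicate 1 or 2 (-1.77 and -1.91, adjusted p = 0.0861 and 0.0740). The kinase gene Plk3 stood at 290.1, 292 and 279 in Samhd1 KO and 528, 625 and 448 in Samhd1 Sting dKO, higher by 0.88 there (limma adjusted p = 0.00916). Against WT (514, 461 and 478) it fell by 0.75 in Samhd1 KO (adjusted p = 0.0261). This call ended without any 1 of the 6 libraries compared (-0.79 to -0.71, adjusted p up to 0.0888).

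Of the remaining calls in the list, Btg2, an antiproliferative gene, fell by 0.39 in Samhd1 Sting dKO against WT (limma adjusted p = 0.0116), though not with age (-0.36, adjusted p = 0.0591) or the B cell marker score (-0.47, adjusted p = 0.0919) as a term. Its fall of 0.28 against Samhd1 KO (adjusted p = 0.0489) ended when any library was left out except replicate 2 of Samhd1 KO or of Samhd1 Sting dKO (-0.28 to -0.22, adjusted p up to 0.134). Myc rose by 0.71 in Samhd1 Sting dKO against Samhd1 KO (limma adjusted p = 0.0429), not without WT replicates 1 or 2, Samhd1 KO replicates 1 or 3 or any Samhd1 Sting dKO library (0.57 to 0.80, adjusted p up to 0.142). Against WT, Myc rose by 0.67 (adjusted p = 0.0496), a gene outside the naming rule there that was named after its values were seen, to complete the 4. It held without Samhd1 KO replicate 2 or Samhd1 Cardif dKO replicates 2 or 3 and ended without each of the other 9 libraries (0.53 to 0.81, adjusted p up to 0.157). Dusp6, the phosphatase of ERK, fell by 0.84 in Samhd1 KO against WT (limma adjusted p = 0.0492), a call that ended without any of 9 libraries, all but Samhd1 KO replicate 1, Samhd1 Cardif dKO replicate 1 and Samhd1 Sting dKO replicate 2 (-0.96 to -0.67, adjusted p up to 0.184).

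Among the 17 AP-1 partners and related bZIP genes, 1 fell in each mutant against WT, which was Jdp2 each time. JDP2 is a bZIP protein that dimerizes with JUN proteins and represses AP-1 targets. It stood at 793, 834 and 764 normalized reads in WT, 461, 341 and 354 in Samhd1 KO, 369, 254 and 258 in Samhd1 Cardif dKO, then 374, 218 and 323 in Samhd1 Sting dKO. Every mutant library lay below every WT library. The fall was 1.06 in Samhd1 KO (limma adjusted p = 0.0138), 1.46 in Samhd1 Cardif dKO (adjusted p = 0.00730) and 1.42 in Samhd1 Sting dKO (adjusted p = 0.00293). The first of these ended without WT replicate 3 or Samhd1 KO replicate 2 or 3 (-1.09 to -0.98, adjusted p up to 0.0559), and the others held with each library left out. In the comparisons among the mutants, 0 of 17 passed by limma. At an unadjusted p under 0.05, 0 were higher and 4 lower in Samhd1 Cardif dKO against Samhd1 KO, beside 448 and 740 of the 13231 tested genes. By that p, 2 were higher and 2 lower in Samhd1 Sting dKO against Samhd1 KO, beside 1420 and 1531. Against Samhd1 Cardif dKO, 4 were higher and 0 lower in Samhd1 Sting dKO, beside 1022 and 1054.

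Of 19 kinases and factors upstream, 1 rose in Samhd1 KO against WT, 2 rose and 1 fell in Samhd1 Sting dKO against WT, and 1 rose in Samhd1 Sting dKO against Samhd1 KO. Mapkapk2, the kinase activated by p38, rose in Samhd1 KO (0.46, limma adjusted p = 0.0426) and Samhd1 Sting dKO (0.53, adjusted p = 0.0191) against WT. The call in Samhd1 KO ended without any of the 6 libraries compared or Samhd1 Sting dKO replicate 2 (0.43 to 0.50, adjusted p up to 0.128). That in Samhd1 Sting dKO ended without any WT library or its own replicates 2 or 3 (0.42 to 0.55, adjusted p up to 0.0682). Elk3, a partner of serum response factor, stood at 838, 798 and 996 normalized reads in Samhd1 KO and 1513, 1169 and 1405 in Samhd1 Sting dKO, a rise of 0.63 (limma adjusted p = 0.00849). Against WT it rose by 0.54 (adjusted p = 0.0188), not without WT replicates 2 or 3 or Samhd1 Sting dKO replicates 1 or 3 (0.46 to 0.54, adjusted p up to 0.0732). Mapk14, which encodes p38 alpha, fell by 0.31 in Samhd1 Sting dKO against WT (limma adjusted p = 0.0164), not without WT replicates 1 or 3 or Samhd1 Sting dKO replicate 3 (-0.31 to -0.27, adjusted p up to 0.0645).

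Of 12 tested genes of the Zfp36 family, messenger decay and known ZFP36 targets, 2 were called lower in Samhd1 Sting dKO than in Samhd1 KO and 1 lower in each double knockout than in WT. By limma 0 rose in any comparison. At an unadjusted p under 0.05 at most 1 was higher in each, where 448 to 1604 of the 13231 tested genes were. The chemokine target Cxcl2 stood at 510.4, 673 and 689 normalized reads in WT, 699.7, 618 and 443 in Samhd1 KO and 280.4, 357 and 337 in Samhd1 Sting dKO. It fell by 0.93 in Samhd1 Sting dKO against WT (limma adjusted p = 0.00971) and by 0.83 against Samhd1 KO (adjusted p = 0.0155). The second call ended without replicate 1 or 2 of Samhd1 KO or replicate 1 of Samhd1 Sting dKO (-0.78 to -0.69, adjusted p up to 0.0584). Cxcl1 was also lower than in Samhd1 KO there, where it fell by 0.86 (adjusted p = 0.0389), not without WT replicate 2, Samhd1 KO replicate 1 or 2, Samhd1 Cardif dKO replicate 3 or any Samhd1 Sting dKO library (-0.92 to -0.71, adjusted p up to 0.108). Zfp36l1, a paralog of Zfp36, fell by 0.49 in Samhd1 Cardif dKO against WT (limma adjusted p = 0.0484), a call that ended without any of 9 libraries, all but Samhd1 KO replicates 2 and 3 and Samhd1 Cardif dKO replicate 3 (-0.52 to -0.41, adjusted p up to 0.168).

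Heat shock genes, which share handling stress with the immediate early genes as a known inducer, were lower in all mutants. Of 11 tested, 6 fell and 0 rose against WT in the single and in both double knockouts, with medians of -0.52, -0.69 and -0.76 on the log2 scale. Hspa8, a constitutive HSP70, stood at 13893, 14257 and 16194 normalized reads in WT, 9944, 8946 and 8891 in Samhd1 KO, 8365, 7297 and 7042 in Samhd1 Cardif dKO, then 6732, 6950.1 and 5412 in Samhd1 Sting dKO. It fell by 0.67 in Samhd1 KO (limma adjusted p = 0.00678), by 0.97 in Samhd1 Cardif dKO (adjusted p = 0.00199) and by 1.22 in Samhd1 Sting dKO (adjusted p = 0.000219) against WT, with each library left out in turn. Hsph1, an HSP110 chaperone, stood at 1846, 2129 and 2758 in WT and at 391 to 1039 in the other 9 libraries. Its fall of 1.37 in Samhd1 Cardif dKO (adjusted p = 0.0170) ended without replicates 2 or 3 of WT or 1 or 3 of Samhd1 Cardif dKO (-1.40 to -1.21, adjusted p up to 0.0752), while those of 1.30 in Samhd1 KO and 1.92 in Samhd1 Sting dKO held. Hspa1b and Hspa1a are near-identical copies whose reads may have been split between them, so their values are not given. Against Samhd1 KO, 2 of 11 fell in Samhd1 Sting dKO, Hspa8 and Dnajb1. The call of Dnajb1 ended without WT replicate 1 or any library of the 2 groups (-0.42 to -0.34, limma adjusted p up to 0.0910). In Samhd1 Cardif dKO against Samhd1 KO, 0 passed by limma. At an unadjusted p under 0.05, 0 were higher and 2 lower there, beside 448 and 740 of the 13231 tested genes. WT thus had the highest group mean of Fos, Hspa8 and Hsph1 and the lowest of Junb, and the part of handling in these differences was not tested. Adding the B cell marker score, which itself differed between genotypes, ended 35 of the 46 calls examined in these neighbouring lists. Those that held were Klf4 in Samhd1 Sting dKO and Jdp2 in Samhd1 Cardif dKO against WT, and heat shock calls of the double knockouts against WT, among them Hspa8, Hsph1 and Dnaja1 in both. Age as a term ended 11, among them Elk3 in Samhd1 Sting dKO against WT (0.48, limma adjusted p = 0.0891), and with the 2 groups alone 6 ended, among them Per1 in Samhd1 Cardif dKO against WT (adjusted p = 0.0810) and Egr2 against Samhd1 KO (1.13, adjusted p = 0.109).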

How the data were processed

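Per-gene signal in the deposited table equals read counts scaled by the authors with a constant for each library, since within each library all values were whole multiples of 1 step (tolerance 1e-04 reads). That step was 1.003 for Samhd1 Cardif dKO replicate 2. Genes are from Ensembl 61 on mm9, per the file headers, and bedtools 2.16.2 with DESeq 1.6.1 are the tools in the submitters' processing notes. For the aligner, the sources used here give no name. The deposited table also holds the authors' ratio of the double knockout means, its log2 value and their p-value and adjusted p, used here only where named. The deposited transcript lengths were used for levels per kb.

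The design assumed raw counts or normalized values, and the normalized values were tested. The scale was log2(normalized reads + 1), on which changes of low genes come out too small. A gene needed 10 normalized reads or more in 3 or more libraries (13231 of 15721 passed). A mean per genotype was fitted to the 12 libraries with limma 3.58.1 (trended prior, R 4.3.3, 8 residual degrees of freedom), and p-values were adjusted by Benjamini-Hochberg over all tested genes at 0.05. The median SE of a log2 difference was 0.135. Recovered reads served edgeR 4.0.16 and DESeq2 1.42.0 as alternatives. Each library was also left out in turn, and age, sex, the replicate number, other scalings, filters and pseudocounts were tried, as was a B cell marker score, chosen after the data were seen. The score differed between genotypes, so a call lost with it does not tell B cell content from genotype. Only Samhd1 Cardif dKO replicate 1 was male, so the sex term gave the same estimates as leaving that library out. Scripts were tested on simulated data.

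All 10 members are named, and up to 4 genes per neighbouring list and comparison by adjusted p. The nearest profiles are the 5 closest genes with a mean of at least 50 normalized reads. The members and lists were chosen with earlier results of these data known, so no p is given for a list. Of the 35 other immediate early genes listed, 32 were in the table and 28 tested, and of 16 genes of the Zfp36 group 15 and 12. A call in the higher direction among the AP-1 partners and related bZIP genes is not reported here. Genes without a read in the double knockout libraries are not in the table. Promoter sequences are from RefSeq on GRCm38.p6.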

Additional observations from a re-analysis of the deposited data

How the results depend on the processing

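The number of members called differed between settings as follows. In Samhd1 KO against WT, 1 was called, but 2 with DESeq2 (Junb and Jund), 0 with the B cell marker score added, and 0 to 1 when each library was left out. For Samhd1 Sting dKO against Samhd1 KO, 0 became 1 with DESeq2 (Jund) and 0 to 1 with a library left out. In Samhd1 Cardif dKO against WT, 0 became 1 with DESeq2 (Fos), 1 with the 2 compared groups alone (Egr1) and 0 to 1 with a library left out. In Samhd1 Sting dKO against WT, 2 became 4 with DESeq2 (Fos, Junb, Jund and Ier2), 3 with sex as a term (Fos, Junb and Jund), 0 with the B cell marker score, and 1 to 3 with a library left out. In Samhd1 Sting dKO against Samhd1 Cardif dKO, 1 became 0 with the replicate block, with age, with sex, with the B cell marker score and with the 2 groups alone, and 0 to 1 with a library left out. The cause of these changes was not tested. In Samhd1 Cardif dKO against Samhd1 KO, 0 were called under each setting run.

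Same-numbered libraries did not deviate together (18 correlations of -0.43 to 0.37, 7 above 0.1, with 4 of 12 libraries closest to their own number). The replicate block lowered the calls over all genes from 572 to 504 in Samhd1 KO against WT, 19 to 2 in Samhd1 Cardif dKO against Samhd1 KO and 37 to 23 between the double knockouts.

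Over all genes the calls also moved by more than 1.5 times. In Samhd1 KO against WT, 572 became 1084 with DESeq2 and 75 with the B cell score. In Samhd1 Cardif dKO against Samhd1 KO, 19 became 190 with DESeq2, 6 with age, 0 with sex and 1 with the groups alone. For Samhd1 Sting dKO against Samhd1 KO, 749 became 1306 with DESeq2, 18 with the B cell score and 462 with the groups alone. For Samhd1 Cardif dKO against WT, 140 became 485 with DESeq2, 42 with sex, 40 with the B cell score and 67 with the groups alone. For Samhd1 Sting dKO against WT, 860 became 1408 with DESeq2, 423 with age and 115 with the B cell score. Between the double knockouts, 37 became 503 with DESeq2, 4 with age, 8 with sex, 0 with the B cell score and 7 with the groups alone. With a library left out they ranged from 183 to 610, 0 to 31, 416 to 867, 36 to 160, 355 to 906 and 0 to 44 in the same order. Of 46 calls in the neighbouring lists, 35 ended with the B cell score, 11 with age, 6 with the groups alone and 4 with the replicate block, and 0 with DESeq2. The median log2 difference of all tested genes was at most 0.0152 in absolute size in any comparison and setting (with TMM factors), beside at most 0.0059 in the main fit.

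Single members changed sign without being called. With the B cell marker score these were, in Samhd1 KO against WT, Dusp1 (0.14) and Zfp36 (-0.11), in Samhd1 Cardif dKO against Samhd1 KO Ier2 (0.0247), in Samhd1 Sting dKO against Samhd1 KO Fos (0.66), Fosb (1.59), Junb (0.31) and Zfp36 (0.26), against WT Zfp36 (0.15), and against Samhd1 Cardif dKO Egr1 (0.38) and Dusp1 (-0.63). Ier2 in Samhd1 Cardif dKO against Samhd1 KO was 0.0063 with TMM, 0.0022 with edgeR and 0.0028 with DESeq2. Jun in Samhd1 Sting dKO against WT was 0.0309 with edgeR, 0.0347 with DESeq2 and 0.0089 with age, where Atf3 was 0.0221 and Zfp36 0.0419 with age. With sex, Jun was -0.0512 in Samhd1 Cardif dKO against WT and 0.0477 in Samhd1 Sting dKO against Samhd1 Cardif dKO. There Egr1 was 0.52 with edgeR, 0.51 with DESeq2 and 0.30 with age, and Dusp1 -0.25 with age and -0.11 with sex.

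With a library left out, differences crossed 0 in Samhd1 KO against WT for Zfp36 (-0.0763 to 0.20), in Samhd1 Cardif dKO against Samhd1 KO for Ier2 (-0.0832 to 0.0787), and in Samhd1 Sting dKO against Samhd1 KO for Fosb (-1.13 to 0.0266), Junb (-0.11 to 0.0537), Egr1 (-0.0515 to 1.66) and Ier2 (-0.0129 to 0.18). In Samhd1 Cardif dKO against WT they crossed for Fosb (-0.78 to 0.18), Jun (-0.0512 to 0.21), Jund (-0.0082 to 0.14), Atf3 (-0.0337 to 0.29) and Zfp36 (-0.26 to 0.0146). For Samhd1 Sting dKO against WT they crossed for Fosb (-0.19 to 0.97), Jun (-0.22 to 0.20), Atf3 (-0.20 to 0.17) and Zfp36 (-0.22 to 0.0626). Between the double knockouts they crossed for Fos (-0.0761 to 0.27), Jun (-0.33 to 0.10), Egr1 (-1.25 to 0.46), Atf3 (-0.28 to 0.0462), Dusp1 (-0.18 to 0.37), Ier2 (-0.0105 to 0.18) and Zfp36 (-0.0599 to 0.14). Fosb rested on 7 to 47 reads per library.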

Other observations

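Samhd1 Sting dKO replicate 2 combined the highest Egr1 (1699 normalized reads) and Ier2 (1946) with the lowest Dusp1 (1538) and Sik1 (504) of the 12 libraries, which were noted after the values were seen. Sik1, a kinase gene induced by cyclic AMP signalling, stood at 1369, 1053 and 767 in WT, 1409, 751 and 1007 in Samhd1 KO, 754, 584 and 579 in Samhd1 Cardif dKO, then 753, 504 and 749 in Samhd1 Sting dKO. The lowest Per1 values were in Samhd1 Cardif dKO (1211, 1022 and 474), and Samhd1 Sting dKO stood at 2580.4, 2191 and 2853.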
